A study of Homo sapiens with 8 samples.

Results

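The regions described here are the peaks of the RNA-binding protein IGF2BP1 that lay inside introns. H1299, a line from a human lung carcinoma of the non-small cell type, is labelled as wild type, epithelial-like and from lung. Cells received 0.01% DMSO, the solvent, or 1.5 µM AVJ16, a small molecule inhibitor of IGF2BP1, for 24 h, and AVJ16 was compared with DMSO to ask how the inhibitor alters the binding of IGF2BP1 to RNA. Binding was read by eCLIP, in which UV light (254 nm, 400 mJ/cm2) crosslinks protein to RNA in intact cells, the protein is immunoprecipitated (IP) with an antibody, and the attached RNA is sequenced beside a size-matched input (SMInput) made without the antibody. Each treatment had 2 IP and 2 SMInput libraries, 8 in all, from a single thaw of 1 cell line, and 1 merged list of peaks per treatment was used, so no value for a single replicate is at hand.

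A peak was taken as a member when it lay on the same strand inside the body of a protein-coding gene of GENCODE release 44 and overlapped no exon of any gene on that strand. Peaks inside MAD1L1, GSE1, RXRA and ZC3H3, whose introns held 340 peaks with DMSO and 73 with AVJ16, were left out. This left 869 of 22311 peaks with DMSO (3.90%, 95% Wilson interval 3.65 to 4.16%) and 379 of 22123 with AVJ16 (1.71%, 1.55 to 1.89%). They lay in 265 and 168 host genes, with a median length of 70.0 nt (2 to 217 nt) and 71.0 nt (4 to 275 nt). Every peak carries a log2 fold enrichment of IP over SMInput, listed from 3.00 upward, and a −log10 p, listed from 3.01 with DMSO and 3.00 with AVJ16 up to a limit of 400. A site below either limit does not appear in a list. How deeply the libraries were sequenced is unknown here, intervals cover counting error only, and no test between the treatments was possible. In such pooled cultures, fewer cells that carry an RNA and less of it per cell cannot be told apart. Peak lists hold no expression level either: of 9 markers looked up, VIM, an intermediate filament of mesenchymal cells, had peaks (4 with DMSO and 1 with AVJ16, in exons), while KRT8, KRT18, EPCAM, CDH1, NKX2-1, NAPSA, SFTPC and SFTPB had none.

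IGF2BP1 is an oncofetal protein that binds mRNAs through KH domains, mainly in 3′UTRs and coding sequence, and is known for keeping its targets stable and for acting on them in the cytoplasm. Introns are present in the nascent transcript and are spliced out in the nucleus, so an intron peak lies on RNA that a mature mRNA no longer holds, unless an exon, a small RNA or a repeat that the annotation does not show lies there. Earlier work on IGF2BP proteins has given CA-rich elements, among them CAU followed by A, C or U, and the m6A consensus GGAC as sequences they prefer.

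Some of the most enriched peaks of each kind are shown first. The first set was present in both lists and led by enrichment, apart from peaks that match ribosomal RNA. The capitals mark CAU followed by A, C or U, which the NECTIN3 peak lacks. The next gene by enrichment among shared DMSO peaks, RO60 (4.74), is not printed, and its peak lacks the element too. GXYLT2 encodes a xylosyltransferase of the Notch pathway, MRPL19 a protein of the mitochondrial ribosome, NECTIN3 a cell adhesion protein and NUMBL a relative of the Notch regulator NUMB. In order, the peaks lie at chr3:72980445-72980529 (plus strand), chr2:75671240-75671326 (plus), chr3:111196458-111196513 (plus) and chr19:40688133-40688223 (minus) of hg38, the first 3 as listed with DMSO and the last as listed with AVJ16.
GXYLT2: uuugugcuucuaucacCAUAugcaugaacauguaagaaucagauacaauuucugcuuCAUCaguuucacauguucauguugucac
MRPL19: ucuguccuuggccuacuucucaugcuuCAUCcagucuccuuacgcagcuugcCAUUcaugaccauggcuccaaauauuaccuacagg
NECTIN3: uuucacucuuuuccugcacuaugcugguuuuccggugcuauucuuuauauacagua
NUMBL: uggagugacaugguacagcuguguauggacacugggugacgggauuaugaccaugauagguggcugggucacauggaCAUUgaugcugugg
The GC contents of the first 3 were 35.3%, 48.3% and 37.5%, and that of NUMBL was 51.6%.

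The following peaks were the most enriched of the DMSO list without an overlapping AVJ16 peak. OSBPL5 encodes a lipid transfer protein, PLXNA1 a semaphorin receptor and BAIAP2 an adaptor protein of the actin cytoskeleton. They lie at chr11:3160370-3160434 (minus strand, intron 1 of OSBPL5), chr3:126996822-126996851 (plus, intron 3 of PLXNA1) and chr17:81079045-81079106 (plus, intron 3 of BAIAP2), and none holds CAU followed by A, C or U. The next by enrichment, in LMF1 (4.74), is not printed and holds the element 1 time.
OSBPL5: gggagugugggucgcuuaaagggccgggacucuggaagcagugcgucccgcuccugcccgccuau
PLXNA1: gugccccuugcaccugcagcaugcagccca
BAIAP2: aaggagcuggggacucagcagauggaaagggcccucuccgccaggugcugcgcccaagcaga
Their GC contents were 66.2%, 66.7% and 64.5%, above the shared peaks just shown. Among the AVJ16 peaks without an overlapping DMSO peak, those of GNA11, a G protein subunit (chr19:3104890-3104965, plus, intron 1), and TAF4, a subunit of the general transcription factor TFIID (chr20:61982852-61982894, minus, intron 14), were the most enriched that are printed here.
GNA11: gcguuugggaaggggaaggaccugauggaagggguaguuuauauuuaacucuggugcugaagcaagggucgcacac
TAF4: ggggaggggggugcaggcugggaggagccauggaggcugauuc

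There were 0.44 times as many intron peaks with AVJ16 as with DMSO (379 against 869). Over all peaks the ratio was 0.99, and over peaks in exons it was 1.03 (21637 against 21031), so the difference between the lists lay in introns and not in the total. Within the introns the ratio was not uniform. It was 0.42 in first introns (120 against 284) and 0.37 in later introns (173 against 473) of the Ensembl canonical transcript, on which introns were numbered. It was 0.87 (76 against 87) for peaks beyond the 3′ end of the canonical transcript, that is, inside the gene body only because another transcript of the gene reaches further. A small remainder, 25 peaks with DMSO and 10 with AVJ16, lay before the start of the canonical transcript. The count with AVJ16 was close to that with DMSO only for the peaks downstream of the canonical transcript.

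**Figure D1:**
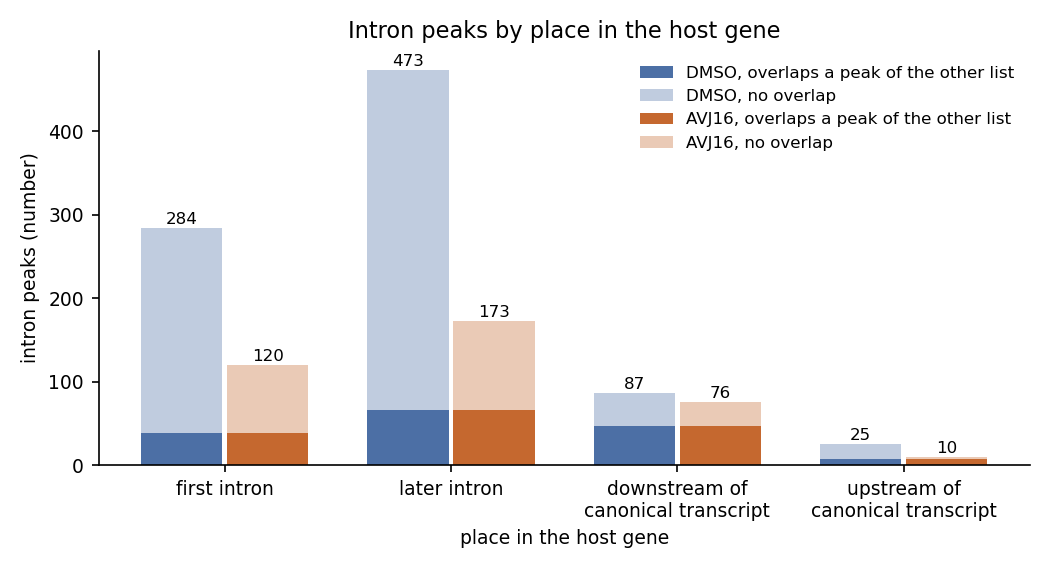
Number of intron peaks (vertical axis) by place in the host gene, for DMSO (blue) and AVJ16 (orange), with the darker part of each bar for peaks that overlap a peak of the other list. First introns held 284 and 120 peaks and later introns 473 and 173, whereas downstream of the canonical transcript the bars are of like height, 87 and 76.

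Most intron peaks lay far from exons. With DMSO, 732 peaks (84.2%, 81.7 to 86.5%) were more than 500 nt from the nearest exon on their strand and 137 were nearer. With AVJ16, 292 (77.0%, 72.6 to 81.0%) were beyond 500 nt and 87 were nearer, so the nearer peaks were 0.64 times and the distant peaks 0.40 times as many as with DMSO. The median distance was 2337 nt with DMSO and 1615 nt with AVJ16, and the longest was 56753 nt and 75234 nt. At the 500 nt limit, the peak just inside lay in CCDC85C with DMSO (500 nt from an exon, log2 fold enrichment 3.51) and in UNKL with AVJ16 (483 nt, 3.34), and those just outside lay in AMPD2 (505 nt, 3.20) and BRD1 (501 nt, 3.68). Few peaks lay close to an exon of any kind, 24 with DMSO and 15 with AVJ16 within 50 nt, and some of these exons are processed pseudogenes with no splice site. The nearest exon within 500 nt belonged to a protein-coding gene alone for 125 of the 137 nearer peaks with DMSO and 78 of the 87 with AVJ16.

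Introns that held peaks were long, with a median of 22514 nt with DMSO and 17365 nt with AVJ16. Of the 757 DMSO peaks in introns of the canonical transcript, 37.5% (34.1 to 41.0%) were in the first intron. Averaged over the peaks, the first intron made up 30.1% of the intron length of the host gene and 10.6% of its introns. Of the 293 AVJ16 peaks, 41.0% (35.5 to 46.7%) were in the first intron, against 32.7% of the length and 11.9% of the introns. In both lists the interval lay above the share of length, but this did not hold under other settings. With DMSO it was lost when the intron had to be first in every spanning transcript (31.3%, 28.3 to 34.5%). With AVJ16 it was lost at a −log10 p of at least 5 (38.3%, 31.1 to 46.0%), and in both among peaks whose log2 fold enrichment reached 4 (29.8%, 19.5 to 42.7%, and 28%, 14.3 to 47.6%). The share of length was not recomputed for these sets. The 31.3% was taken over all 869 DMSO peaks, including those outside the canonical transcript. Within their introns the peaks leaned to the 5′ side, with 41.2% in the first part and 25.2% in the last part with DMSO when each intron was cut into 3 equal parts, and 39.9% and 25.6% with AVJ16.

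Intron peaks were less enriched than exon peaks. The median log2 fold enrichment was 3.34 (95% interval of the median 3.32 to 3.36) with DMSO and 3.35 (3.32 to 3.39) with AVJ16, against 3.65 and 3.62 for peaks in exons. The median −log10 p was 6.27 and 6.19, against 13.4 and 13.4. A log2 fold enrichment of 4 or more was reached by 82 intron peaks with DMSO (9.44%, 7.67 to 11.6%) and 37 with AVJ16 (9.76%, 7.17 to 13.2%), but by 30.6% and 27.8% of exon peaks. The 2 lists thus gave near identical medians for introns while the number of peaks differed. A p-value computed from whole reads repeats exactly when the same counts recur, and 96.0% of the DMSO and 95.3% of the AVJ16 intron peaks had a −log10 p that recurs in their list, against 80.4% and 77.8% of exon peaks.

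The host genes of these peaks numbered 306 in either list, 1.53% of the 20046 protein-coding genes. Of them, 127 had intron peaks in both lists (47.9% of the DMSO genes and 75.6% of the AVJ16 genes), 138 with DMSO alone and 41 with AVJ16 alone. Counts per gene were lower with AVJ16 in 213 genes, higher in 54 and equal in 39. The peaks were concentrated: 55 genes with 5 or more held 517 of the 869 DMSO peaks, and 53 of these 55 genes had fewer peaks with AVJ16, 7 of them none. With AVJ16, 15 genes had 5 or more and held 122 of 379. Since the 55 genes were chosen for their DMSO count, their lower AVJ16 count is a description only.

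PLXNA1 (ENSG00000114554) had the most, 25 with DMSO and 3 with AVJ16. All lay in intron 3 of 31, from 126991602 to 127002622 on chromosome 3, at log2 fold enrichments of 3.00 to 5.19 with DMSO and 3.14 to 3.34 with AVJ16. Only 2 of the 25 overlapped an AVJ16 peak, and the most enriched one, printed above, did not. SBNO2 (ENSG00000064932), a transcriptional coregulator, had 22 and 12 peaks, all in intron 1 of 31 between 1154506 and 1172709 on chromosome 19, and 6 of each list overlapped. The SBNO2 enrichments spanned 3.06 to 4.33 with DMSO and 3.02 to 4.38 with AVJ16, a like range on both sides. BAIAP2 (ENSG00000175866) had 19 and 2 peaks, with 1 shared, and OSBPL5 (ENSG00000021762) 18 and 2 in intron 1, also with 1 shared. The 2 AVJ16 peaks of BAIAP2 were at 3.08 and 3.09 and those of OSBPL5 at 3.23 and 3.91, whereas the most enriched DMSO peaks of these genes reached 4.80 and 5.43. PTP4A3, a phosphatase that promotes cell migration, had 18 and 3, all DMSO peaks in its first intron.

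The same order of counts was found further down the DMSO list. BAHCC1, a chromatin protein, had 16 and 1 peaks, and none was shared. FBRSL1 had 16 and 3, VAV2, a guanine nucleotide exchange factor, 15 and 5, and CACNA1H, a T-type calcium channel, 14 and 2. CEP170B had 14 and 3, AKT1, a kinase of the PI3K pathway, 13 and 5, and MACROD1, an ADP-ribose hydrolase, 13 and 5. In CEP170B no peak of either list overlapped one of the other, so its AVJ16 peaks were at other places of the introns. Genes with peaks in the DMSO list alone were led by COL18A1, TBC1D22A and ZMIZ1 with 6 each, and those in the AVJ16 list alone by BRD1 with 3.

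Other genes held closer counts in both lists, in part downstream of the canonical transcript and in part inside its introns. NECTIN3 (ENSG00000177707) held 14 peaks of the DMSO list and 22 of the AVJ16 list, between 111193664 and 111200848 on chromosome 3, and 13 of the 14 overlapped an AVJ16 peak. GXYLT2 (ENSG00000172986) had 12 and 11, of which 10 and 11 overlapped. RRM2, a subunit of ribonucleotide reductase, had 9 and 8 downstream peaks, but only 1 of each list overlapped, so like counts did not mean like positions. CYREN had 8 and 6 downstream peaks, with 5 and 4 shared. Within canonical introns, BRF1, a subunit of the RNA polymerase III factor TFIIIB, had 11 and 10 peaks with 8 and 9 shared, RASA3, a Ras GTPase-activating protein, had 9 and 8 in its first intron with 4 and 4 shared, and NUMBL had 9 and 6 with 6 and 5 shared. CUTC had 6 and 5 upstream of the canonical transcript with 4 and 4 shared.

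**Figure D2:**
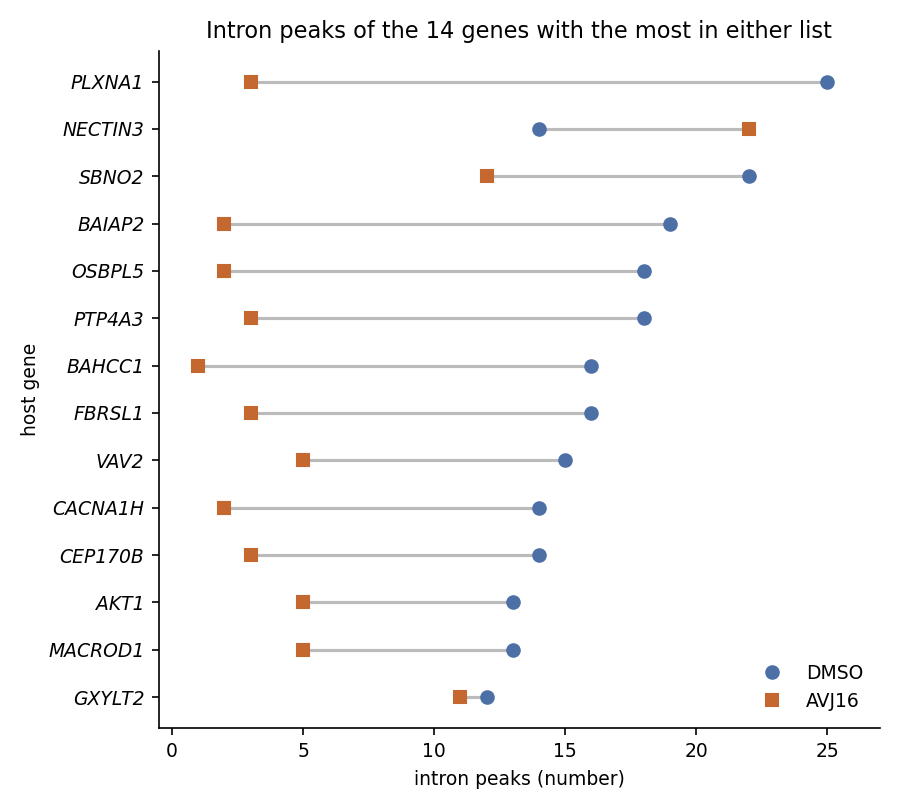
Number of intron peaks (horizontal axis) with DMSO (circles) and AVJ16 (squares) in the 14 host genes with the most in either list. PLXNA1 lies at 25 and 3 and BAIAP2 at 19 and 2, whereas NECTIN3 lies at 14 and 22 and GXYLT2 at 12 and 11.

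Among the gene lists looked up, none of 10 known IGF2BP1 targets, of 3 IGF2BP genes or of 14 WNT genes of the study had an intron peak, but with hosts at 1.53% of all protein-coding genes, lists of this size would seldom hold one. Of 37 axon guidance genes, PLXNA1 and UNC5B, a netrin receptor, had them, with 26 DMSO and 3 AVJ16 peaks together. The UNC5B peak lay in intron 1 at 71221640 to 71221714 on chromosome 10, with a log2 fold enrichment of 3.92 and no AVJ16 partner. The axon guidance count is therefore that of PLXNA1 but for 1 peak.

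The intron peaks were gathered near chromosome ends. With DMSO, 510 of 869 (58.7%, 55.4 to 61.9%) lay within 5 Mb of an end of the assembled chromosome. This compares with 7.94% of exon peaks and 5.82% of the intron length of the genes with an exon peak. With AVJ16 the values were 202 of 379 (53.3%, 48.3 to 58.3%), 7.70% and 6.21%. Only 113 of the 265 DMSO host genes and 64 of the 168 AVJ16 host genes had an exon peak. The intron length used therefore leaves out the introns of the other host genes. The difference from exon peaks was 50.8 points (47.4 to 54.0) and 45.6 points (40.6 to 50.6). This held for canonical introns, first (68.0% with DMSO, 70.0% with AVJ16) and later (64.7% and 65.3%), and not for peaks downstream of the canonical transcript (10.3% and 5.26%). Many of these peaks share a gene, and of the 55 genes with 5 or more DMSO peaks 36 lay within 5 Mb of an end. SBNO2 lay 1.16 to 1.17 Mb from its end, BAIAP2 2.17 to 2.20 Mb and OSBPL5 3.14 to 3.17 Mb, but PLXNA1 lay 71.3 Mb away.

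**Figure D3:**
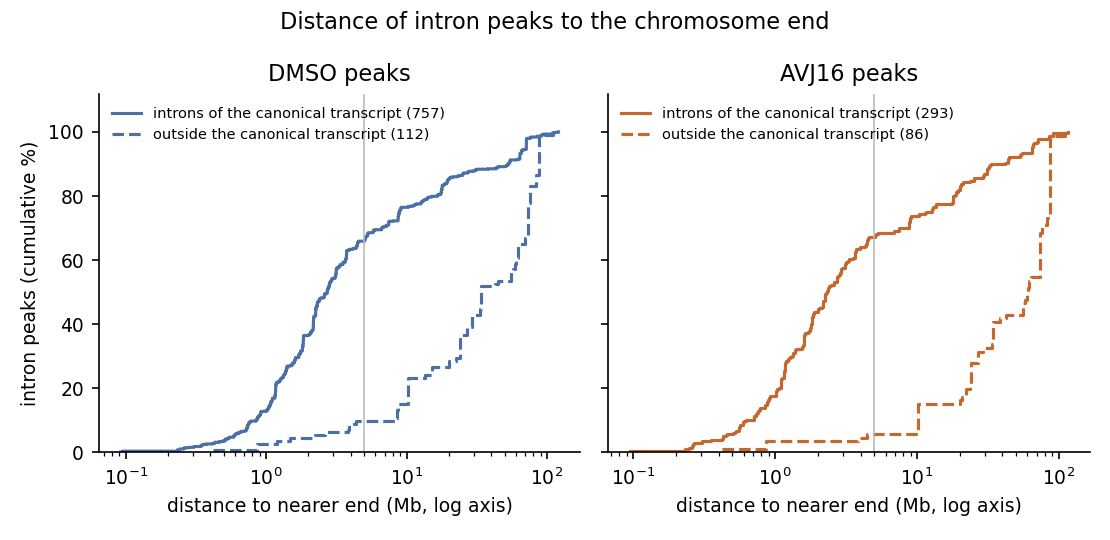
Cumulative percentage of intron peaks (vertical axis) by distance to the nearer chromosome end in Mb (horizontal log axis), for DMSO (left) and AVJ16 (right), with solid lines for peaks in introns of the canonical transcript, dashed lines for the others and a grey line at 5 Mb. The solid lines climb before 5 Mb in both lists and the dashed lines beyond it.

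The intron peaks were rich in G and C, as were the 3 printed DMSO peaks without a partner. The median GC content was 62.0% (61.2 to 62.8%) with DMSO and 60% (58.5 to 61.5%) with AVJ16, against 41.8% and 43.3% in exon peaks. Windows of the same length 500 nt away in the same intron had 58.5% and 56.5%, and the median paired difference was 2.87 points (2.15 to 3.52) and 2.98 points (1.90 to 4.17). So most of the GC content was that of the intron around the peak, with a small excess inside it. Of the bases, G accounted for 33.7% and 31.1% in intron peaks, 30.4% and 29.0% in the windows and 18.8% and 19.7% in exon peaks. Downstream of the canonical transcript the peaks were much poorer, with 41.5% GC with DMSO and 43.8% with AVJ16, and did not differ from their windows (median difference 0.0 points, intervals −4.76 to 4.46 and −2.43 to 6.14). Shared intron peaks had a median of 55.2% with DMSO, below the 63.2% of those without a partner.

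Intron peaks also lay in tandem repeats more often than exon peaks did. A repeat was called where at least 20% of the 12 nt words within 500 nt on each side of the peak centre occur again there. It was called at 78 DMSO peaks (8.98%, 7.25 to 11.1%) and 59 AVJ16 peaks (15.6%, 12.3 to 19.6%), against 0.56% and 0.51% of exon peaks. Windows 5000 nt away in the same intron gave 8.65% and 10.6%, so with DMSO the peaks were in repeats no more often than the intron around them. In later introns the shares were 12.1% and 26.0%, against 10.6% and 16.1% of windows. Among DMSO peaks with a partner the share was 20.6% (15.1 to 27.6%), and without a partner it was 6.35% (4.78 to 8.39%), while with AVJ16 the intervals overlapped (18.1%, 12.9 to 24.8%, and 13.7%, 9.77 to 18.9%). The windows of these peaks differed the same way, at 13.8% (8.81 to 21.0%) and 7.73% (5.96 to 9.97%) with DMSO. With AVJ16 the windows gave 14.4% and 8.2%. In BRF1, 8 of its 11 peaks with DMSO and 8 of its 10 with AVJ16 were in a repeat, with 29.6 to 98.8% of words repeated with AVJ16. Reads of repeat copies can be placed at several of them, which bears on these positions and was not tested. The BRF1 peak with the highest −log10 p, 46.0 with DMSO and 32.2 with AVJ16, at chr14:105232347-105232479 (minus strand) in intron 6, is printed because it holds the same unit at both ends, in capitals.
BRF1: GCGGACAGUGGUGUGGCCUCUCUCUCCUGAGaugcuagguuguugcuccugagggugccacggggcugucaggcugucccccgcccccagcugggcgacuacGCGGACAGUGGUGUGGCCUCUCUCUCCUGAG

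The next question was how many intron peaks of one treatment overlapped, by at least 1 nt on the same strand, a peak of the other. With DMSO it was 160 of 869 (18.4%, 15.98 to 21.1%), and with AVJ16 160 of 379 (42.2%, 37.4 to 47.2%), against 69.2% and 71.4% of exon peaks. Over all peaks, 33.8% of the DMSO list and 29.2% of the AVJ16 list had no partner. The intron peaks were thus without a partner far more often than the lists as a whole, by a difference from exon peaks of −50.8 points (95% Newcombe interval −53.3 to −48.0) in shared peaks with DMSO and −29.2 points (−34.1 to −24.2) with AVJ16. The smaller number of AVJ16 intron peaks bears on the DMSO share directly, since a list with fewer intron peaks can hold fewer partners for them.

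Peaks with a lower −log10 p were shared less often everywhere, so intron and exon peaks were compared within ranges of it. From 3 to 5, 7.64% of DMSO intron peaks and 28.1% of exon peaks had a partner, from 5 to 10 it was 15.0% and 51.3%, from 10 to 20 it was 36.2% and 74.4%, and from 20 upward it was 52.3% and 90.9%. The gap with DMSO was therefore present in every range. With AVJ16 the shares were 18.5% and 33.1%, 45.8% and 56%, 68.2% and 76.7%, and 95.7% and 89.5%. In the last 2 ranges with AVJ16 the interval of the difference included 0 (−8.52 points, −20.5 to 1.50, and 6.14 points, −10.5 to 9.79), on 66 and 23 intron peaks. Within ranges of log2 fold enrichment the gap with AVJ16 was present throughout, at 33.1% against 51.6% in the lowest range and 75.7% against 88.0% from 4 upward (−12.3 points, −28.1 to −1.28).

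**Figure D4:**
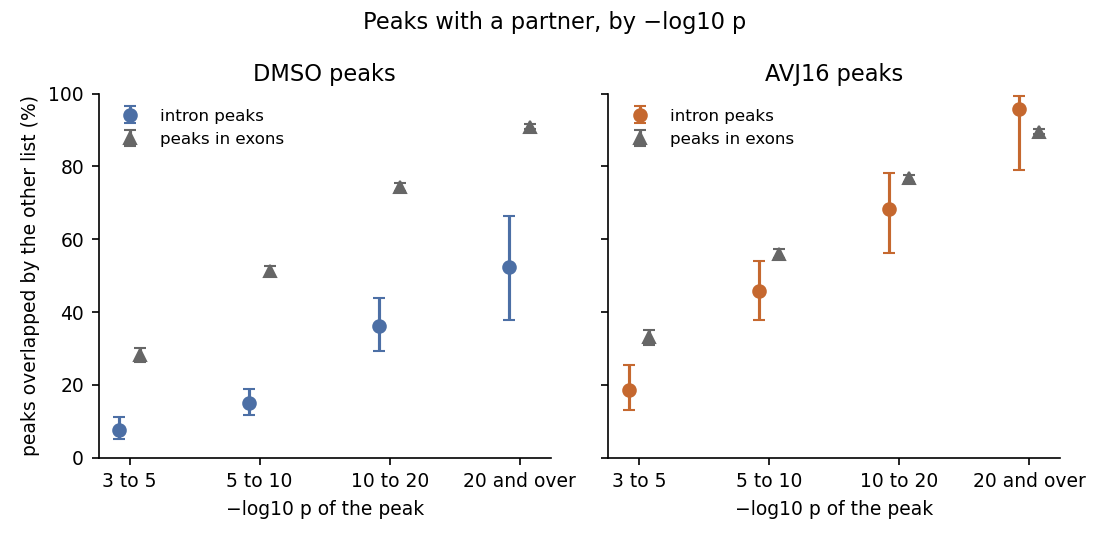
Percentage of peaks overlapped by the other list (vertical axis) by range of −log10 p (horizontal axis), for DMSO (left) and AVJ16 (right) intron peaks (coloured circles) and exon peaks (grey triangles), with 95% Wilson intervals. With DMSO the intron peaks lie below the exon peaks in every range, 52.3% against 90.9% in the last, and with AVJ16 they meet, 95.7% against 89.5%.

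Sharing differed by the place of the peak. With DMSO, 13.7% of first intron and 13.95% of later intron peaks were shared, a difference of −0.22 points (−5.13 to 5.09), but 54.0% (43.6 to 64.1%) of those downstream of the canonical transcript. The downstream peaks exceeded the canonical introns by 40.2 points (29.4 to 50.5) with DMSO and 26.0 points (13.4 to 37.4) with AVJ16, where the shares were 32.5%, 38.2% and 61.8%. Of the 47 shared downstream peaks with DMSO, 13 lay in NECTIN3 and 10 in GXYLT2. Peaks nearer an exon were shared more often in canonical introns, but not downstream of the canonical transcript. There, 50% up to 500 nt and 54.7% beyond it were shared with DMSO, and 55.6% and 62.7% with AVJ16. Over all intron peaks, 31.4% of DMSO peaks were shared up to 500 nt and 15.98% beyond it (difference −15.4 points, −24.0 to −7.69). With AVJ16 it was 51.7% and 39.4% (−12.3 points, −23.9 to −0.52). In finer steps with DMSO the share was 38.6% within 100 nt, 27.96% up to 500 nt, 20.9% up to 2000 nt, 14.6% up to 10000 nt and 8.91% beyond, and the median −log10 p went from 10.5 to 4.84 over the same steps. With AVJ16 the shares of these steps were 56.25%, 49.1%, 40.5%, 41.2% and 26.7%. Peaks of genes that also had an exon peak were shared more often than the others, 22.2% (18.5 to 26.5%) against 15.0% (11.96 to 18.5%) with DMSO and 55.2% (47.6 to 62.6%) against 32.4% (26.5 to 38.9%) with AVJ16. Peaks within 5 Mb of a chromosome end were shared in 13.9% with DMSO and 34.2% with AVJ16, and those beyond in 24.8% and 51.4%.

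The strongest DMSO peaks without a partner had −log10 p values at which most exon peaks are shared. They lay in the first introns of RBM15, a subunit of the m6A methyltransferase complex (log2 fold enrichment 3.68, −log10 p 37.9), and of SREBF1, a transcription factor of lipid synthesis (3.20, 33.5), and downstream of RRM2 (3.06, 31.5). By enrichment, the leading ones after OSBPL5 (5.43), PLXNA1 (5.19) and BAIAP2 (4.80) were those of LMF1, a lipase maturation factor (4.74), and DYNC2I1 (4.69), the latter in a repeat with 86.0% of words repeated. With AVJ16, the peaks of ARHGEF10, GNA11 and TAF4 led at 4.93, 4.70 and 4.20, followed by NECTIN3 (4.17) and SGO1, a protector of sister chromatid cohesion (4.15).

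At the 160 shared intron peaks the median enrichment was 3.43 with DMSO and 3.405 with AVJ16. Peak by peak the lists were less alike, with a Pearson correlation of 0.32 across these peaks, against 0.59 over all shared peaks. The median difference, AVJ16 minus DMSO, was −0.04 on the log2 scale (95% interval −0.11 to 0.03, SD 0.57 over peaks), against −0.06 over all 14759 shared peaks. It was lower by more than 0.5 at 33 peaks (20.6%), against 20.1% of all shared peaks, and higher by more than 0.5 at 20 (12.5%), against 12.6%. Both shares are those of the lists as a whole. The overlapping AVJ16 peaks were 150 in number, since some of them overlap more than 1 DMSO peak best. Downstream of the canonical transcript 12 of 47 were lower and 2 higher by more than 0.5, with a median of −0.10 (−0.35 to 0.02), and in first introns it was 6 and 7 of 39.

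**Figure D5:**
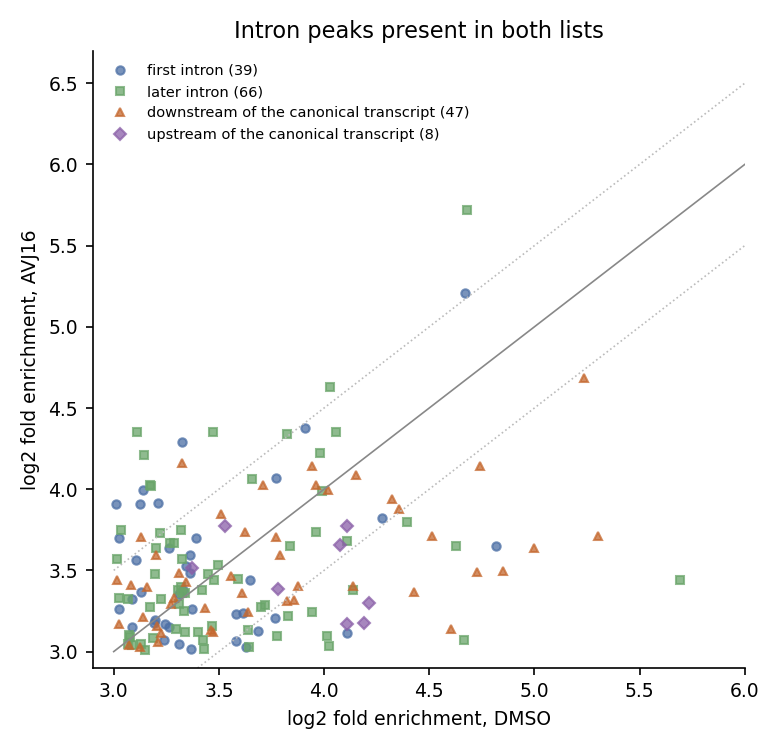
Log2 fold enrichment of the 160 shared intron peaks with DMSO (horizontal axis) and with AVJ16 (vertical axis), each pair a point coloured by place, with the line of equality and dotted lines 0.5 above and below it. Most points lie near the line, with 33 below the lower and 20 above the upper dotted line.

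The largest differences were found at few genes. HFM1, a meiotic helicase, was at 5.69 with DMSO and 3.44 with AVJ16, a difference of −2.25, in the pairing by largest overlap. A further AVJ16 peak at 5.01 overlaps the same HFM1 peak, so the difference depends on where the peaks were cut. The next lower values were at SLCO5A1 (4.66 and 3.07), GXYLT2 (5.30 and 3.71, and 4.61 and 3.14), AAMDC (4.999 and 3.64) and NECTIN3 (4.85 and 3.496). GXYLT2 also had an AVJ16 peak of 4.44 over its most enriched DMSO peak. The largest higher values were at ZGPAT (3.11 and 4.36, difference 1.24), VAV2 (3.14 and 4.21), RYR2, a calcium release channel (4.68 and 5.72), ARHGEF10 (3.33 and 4.29) and OSBPL5 (3.01 and 3.91). Across the 13 shared NECTIN3 peaks the difference ran from −1.36 to 0.84, so the peaks of 1 gene differed in both directions.

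Some peaks that count as intronic lay on other RNAs. Small nucleolar RNAs (snoRNAs) guide the modification of ribosomal RNA and are often cut from introns, and a few that RefSeq places in these introns are no exons in GENCODE release 44. RefSeq snoRNAs were overlapped by 9 DMSO and 8 AVJ16 members, 8 of each with a partner. SNORD135 (chr19:12703597-12703671, in intron 19 of TNPO2, a nuclear import receptor) was covered over all of its 75 nt in both lists, by 3 peaks in each. Their −log10 p values were 400, 400 and 73.9 with DMSO and 400, 86.3 and 24.9 with AVJ16, at log2 fold enrichments of 3.34, 3.33 and 3.23 and of 3.36, 3.32 and 3.26. It is printed on the minus strand of the peaks, since the RefSeq table used gives no strand, with UGAUG and CUGA in capitals, the letters of the C and D boxes of this class.
SNORD135: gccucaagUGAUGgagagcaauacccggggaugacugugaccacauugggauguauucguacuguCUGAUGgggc
SNORD143 and SNORD144, both in SEC31A, a COPII coat subunit, were among the others. The SNORD143 peaks reached a −log10 p of 47.5 with DMSO and 56.2 with AVJ16.

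Ribosomal RNA was matched by 10 of the 812 DMSO members of at least 30 nt (1.23%, 0.67 to 2.25%) and 9 of 353 AVJ16 members (2.55%, 1.35 to 4.77%), all in the sense direction, at 90% identity or more over at least 80% of the peak. None of 1346 and 546 windows matched, which at 3 counts of the total allows shares of up to 0.22% and 0.55%, and none of 18587 and 18323 exon peaks, which by the same measure allows up to 0.02% each. The genes were HFM1, RYR2, AAMDC, PID1, SLCO5A1 and GCNT1 for 28S and PDE3A, a phosphodiesterase, for 18S. Among them are the most enriched intron peak of each list, HFM1 with DMSO (5.69) and RYR2 with AVJ16 (5.72), and 8 of the matching peaks of each list were shared. At shared peaks, the lower values of HFM1, SLCO5A1 and AAMDC and the higher value of RYR2 are therefore at sequences that ribosomal RNA also holds.

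These are printed for HFM1 (chr1:91387463-91387530, minus strand, intron 4 of 38) and PDE3A (chr12:20551414-20551505, plus strand, intron 1), where the capitals mark stretches of 12 or more letters that 18S or 28S ribosomal RNA also holds.
HFM1: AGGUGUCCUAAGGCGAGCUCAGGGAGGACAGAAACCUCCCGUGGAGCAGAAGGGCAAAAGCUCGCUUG
PDE3A: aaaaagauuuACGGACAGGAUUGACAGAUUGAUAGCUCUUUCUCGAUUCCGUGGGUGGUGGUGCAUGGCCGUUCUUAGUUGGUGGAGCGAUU
The HFM1 peak was identical to 28S ribosomal RNA over its length, and the matched part of the PDE3A peak to 18S.

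Transcripts of other genes were matched by 5 of 812 DMSO and 9 of 353 AVJ16 members (0.62% and 2.55%), fewer than the 6.39% and 8.97% of windows. Of these, the peak in OOEP with AVJ16 (−log10 p 400, enrichment 4.36, partner 4.01) was identical to RPL39, a ribosomal protein mRNA, and lay 7 nt from RPL39P3, a processed pseudogene. The SLC35F1 peak (−log10 p 77.5, enrichment 4.10, partner 3.64) was 96.7% identical to RPL29 and lay 17 nt from RPL29P4. They are printed because they carry 2 of the 4 highest −log10 p values of the AVJ16 intron peaks, at chr6:73373271-73373304 (minus strand) and chr6:117998927-117998957 (plus strand).
OOEP: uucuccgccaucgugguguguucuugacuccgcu
SLC35F1: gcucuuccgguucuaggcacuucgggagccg

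Motifs were counted in peaks widened by 25 nt on each side and in windows 500 nt away in the same intron, on the strand of the RNA. The counts were not adjusted for base composition, and intron peaks were richer in G and C than the windows and the exon peaks. What this adds to the differences below was not tested. CAU followed by A, C or U was found in 55.2% of DMSO and 61.7% of AVJ16 intron peaks, against 56.3% and 55.4% of windows and 81.9% and 80.3% of exon peaks. The ratio to the windows was 0.98 (0.91 to 1.06) with DMSO and 1.12 (1.0 to 1.24) with AVJ16. As a difference, the AVJ16 value was 6.36 points with an interval that included 0 (−0.06 to 12.7). For peaks not widened the element was less frequent with DMSO than in the windows, with a difference of −4.45 points (−8.50 to −0.35). With AVJ16 the difference for peaks not widened was 0.29 points (−5.96 to 6.61). GGAC was found in 41.5% and 38.8% of the peaks and 36.8% and 35.5% of windows, a ratio of 1.13 (1.02 to 1.26) with DMSO and 1.09 (0.92 to 1.30) with AVJ16. All motif intervals here take peaks and windows as independent, although the windows were matched to the peaks. Many peaks are also neighbours, 51.1% with DMSO and 44.3% with AVJ16 lying within 1000 nt of another, so intervals that barely exclude 1 or 0 are uncertain. The DMSO excess of GGAC had an interval that included 0 for peaks not widened (3.33 points, −0.35 to 7.08) and for windows 1000 nt away (3.74 points, −0.45 to 7.93), while with AVJ16 the latter gave 6.41 points (0.10 to 12.7). Of the motifs that the study names, UCCAG was in 23.5% and 21.9% of the peaks and 17.7% and 18.9% of windows, with a ratio of 1.33 (1.13 to 1.57) with DMSO and 1.16 (0.90 to 1.50) with AVJ16, and the DMSO interval included 0 for peaks not widened (2.26 points, −0.46 to 5.12). The intervals for GNGGCCC (1.21, 0.96 to 1.52 with DMSO), CCNGUU (0.84, 0.63 to 1.12) and UCCUNNUGG (0.98, 0.56 to 1.73) included 1, but against windows 1000 nt away the GNGGCCC excess was 3.86 points (1.21 to 6.63) with DMSO and 3.81 points (0.20 to 7.72) with AVJ16, and CCNGUU with AVJ16 was 3.59 points higher (0.12 to 7.38). UUUCCGAA was in 0 of 869 and 0 of 379 peaks, which at 3 counts of the total allows shares of up to 0.35% and 0.79%, and in 0.04% and 0.06% of exon peaks. The words of 6 letters that led over the windows, chosen after their values were seen, were GAGCAC with DMSO (6.90% against 3.08%) and CACAGC with AVJ16 (10.0% against 3.35%).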

How the data were processed

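Peaks of IGF2BP1 eCLIP from H1299 cells treated with DMSO or AVJ16 were used, grouped by the treatment in the labels. Per the study's methods, the authors trimmed adapters (cutadapt), discarded reads of repetitive elements, mapped the rest with STAR, removed PCR duplicates, called peaks with CLIPper and set the IP reads of each peak against its SMInput reads. The 2 deposited lists, merged over both replicates after IDR per the labels, give the authors' −log10 p and the authors' log2 fold enrichment of IP over SMInput on hg38. Replicates were not listed separately, the read depth is unknown, and the lists were normalized separately to their own inputs. Every peak lay within the chromosomes of the hg38 sequence used (0 beyond an end).

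Peaks were placed with GENCODE release 44 (the methods name another release). The host was the shortest protein-coding gene body whose canonical transcript spans the peak, or the shortest that holds the peak where none spans it. First or later intron refers to the canonical transcript, and peaks outside it were counted apart. A partner overlapped by at least 1 nt on the strand, and the AVJ16 peak of largest overlap was taken as the pair of a DMSO peak. The limit of 0.5 is that of the study's methods. Matches were sought with BLAST+ 2.17.0 against GENCODE transcripts and RefSeq 18S and 28S ribosomal RNA genes of chromosome 21. RefSeq small RNAs came from a table of GRCh38.p14. Shares have 95% Wilson intervals, differences Newcombe intervals and medians intervals from order statistics. Calculations ran in Python 3.11.15 with pandas 2.3.3, numpy 2.4.6, matplotlib 3.10.9, scipy 1.17.1, samtools 1.23.1 and pysam 0.24.0. Placement, pairing, motif and repeat searches were tested on simulated data, where 200 of 200 simulated intron peaks were recovered with their distance.

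The members and gene lists were chosen with earlier results of these data known. Genes were named when they host the 10 most enriched peaks, the 5 with the highest −log10 p or the most peaks of a list, the 5 largest rises or falls at shared peaks, or belong to a gene list above. Not every such gene is reported here, and genes outside this rule were chosen after their values were seen. Leaving out peaks that match ribosomal RNA, and keeping canonical introns alone, were alternatives chosen after seeing the data. The others were higher thresholds, joined peaks, other definitions of an intron peak, a partner, a first intron, a repeat and a match, and other windows. The RNA-seq and proteomics of the study were not analysed here.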

Additional observations from a re-analysis of the deposited data

How the results depend on the processing

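No paired analysis was possible because each list pools both replicates of a treatment, and for the same reason no replicate could be left out in turn. Of 100 recomputed values, 60 were labelled as unchanged and 40 as moved. Shares and median differences were labelled by whether they lay within the spread of the main value. Numbers of peaks have no spread, so their label rests on the size of the change alone. Among those labelled unchanged, the 869 DMSO peaks became 1209 with the 4 dense genes kept in. They became 581 under the stricter p limit, also labelled unchanged, so this label does not mean a like number. In all values with AVJ16 after DMSO, a log2 fold enrichment of at least 4 left 82 and 37 intron peaks. Both lists were cut at this limit, so the partner had to reach 4 too, and 14.6% and 29.7% had such a partner. With partners of any listed enrichment, 41.5% and 75.7% of the same peaks had one. Of these peaks, 75.6% and 70.3% were over 500 nt from an exon. In the first intron were 29.8% and 28%, and the GC content was 1.87 and 1.34 points above the windows. A −log10 p of at least 5 gave 233 AVJ16 peaks and 81.4% of DMSO peaks over 500 nt away. Partner shares were then 21.2% and 54.1%, again with both lists cut at the limit. Counted once per gene there were 265 and 168. With the 4 dense genes kept in, 15.3% of DMSO peaks had a partner and 87.5% were over 500 nt away. Partner shares were 14.8% and 34.3% with an overlap of 50% of both peaks, 13.9% and 35.8% in canonical introns alone, and 21.6% with DMSO for a peak within 50 nt. A distance limit of 200 nt gave 92.3% and 87.1%, and 1000 nt gave 73.5% and 66.0%. The first intron held 31.3% of DMSO peaks when it had to be first in every spanning transcript, and 60.5% and 58.8% when in any. The GC excess was 1.52 and 1.74 points for peaks widened by 25 nt, and 4.05 points with DMSO for windows 1000 nt away. Repeats took 6.10% and 10.6% of peaks with a narrower window on each side, and 5.98% and 11.9% with 30% of words repeated. Matches to other transcripts made up 0.12% of DMSO peaks at 95% identity, and 6.40% and 9.07% when 50% of the peak had to be covered. For the motifs, 35 of 42 values stayed within the spread and 7 moved, the UCCAG excess with DMSO going to 2.26 points for peaks not widened. The cause of these moves was not tested beyond what each setting itself changes.

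The lists limit what can be read: sites under the thresholds are missing, depth is unknown, and a difference between the treatments has no error across replicates. The median difference at shared peaks, −0.04 on the log2 scale, became 0.02 when centred on all shared peaks and 0.01 in canonical introns alone, so it has no settled direction.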
